A study of Mus musculus with 8 samples.

Results

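Gvin1, Trim5, Trim12a, Trim12c, Trim30a, Trim30d, Trim34a and Trim21 are antiviral genes of mouse chromosome 7. They were taken from the count table by their gene identifiers, 8 of 51826 genes, and had been picked as genes lost from knockout libraries. Counts in KO and WT libraries therefore chose them, and their KO against WT values are given as a description with no test. All 8 passed the filter on low counts, as did 16623 genes in all.

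The study compared cardiomyocytes from the hearts of mice with both copies of the long noncoding RNA gene LncSync disrupted (KO) with those of wild-type (WT) mice. There were 4 groups of 2 libraries each: KO adult, WT adult, KO embryos at e13.5 (e for embryonic day) and WT embryos at that age. All 8 libraries carry the strain label C57BL/6 and were made by Smart-seq2 amplification of 200 ng of RNA. How the null allele was made, and whether replicates are separate animals, is not in the labels. p-values therefore measure the spread between these libraries, which may be technical. Total counts ran from 16495084 to 20395600 per library. LncSync is not listed in the count table by that name, so its loss from the KO libraries was not checked. All 12 cardiomyocyte markers were detected, and none of the marker lists of 5 other cell types had a gene at 0 in all 8 libraries. At e13.5 the summed level of 7 detected red cell markers was 69000 and 11000 CPM in the KO libraries, against 19800 and 10200 CPM in the WT libraries, so KO e13.5 replicate 1 stood apart in these. The cardiomyocyte markers summed to 37800 and 14700 CPM in KO e13.5, against 31600 and 25200 CPM in WT e13.5, lowest in KO replicate 2. Fibroblast markers summed to 869 and 3890 CPM in KO e13.5, against 1310 and 3930 CPM in WT e13.5, and so differed between replicates in both genotypes. CPM are each gene's counts divided by the library total, TMM-scaled, and expressed on a common scale.

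TRIM proteins are ubiquitin ligases with a RING finger, a B-box and a coiled coil, and many act in innate immunity. Human and monkey TRIM5 bind the capsids of incoming retroviruses, and mouse Trim5, Trim12a, Trim12c and the Trim30 genes are relatives of it that arose by local duplication. Trim21 is a receptor in the cytosol for antibody that enters the cell on a virus, and Trim30a restrains signalling from Toll-like receptors in mouse macrophages. Gvin1 encodes a very large GTPase induced by interferon. Such genes are low in uninfected tissue and are switched on by interferon, in part through short GAAA repeats that interferon regulatory factors bind in their promoters.

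Because these genes are recent duplicates, the bases that tell them apart decide to which of them a read is counted. The transcript of Gvin1 (ENSMUSG00000045868, chr7:106156556-106215326, minus strand) was aligned with that of Gm4070, a protein-coding gene 203 kb away (chr7:105895139-105953967, minus strand). Over 9005 aligned bases 3 differed, all of them in the 7281 aligned coding bases. The stretches of 61 bases around these 3 coding differences are shown because no other aligned base separates Gvin1 from Gm4070. Capitals mark the base that differs, and coordinates are those of GRCm38 (mm10).
Gvin1 (chr7:106163426-106163486, minus strand): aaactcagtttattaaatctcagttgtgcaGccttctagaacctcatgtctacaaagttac
Gm4070 (chr7:105902009-105902069, minus strand): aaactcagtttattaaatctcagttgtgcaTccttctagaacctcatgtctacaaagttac
Gvin1 (chr7:106160327-106160387, minus strand): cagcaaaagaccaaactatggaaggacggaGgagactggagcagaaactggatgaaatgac
Gm4070 (chr7:105898910-105898970, minus strand): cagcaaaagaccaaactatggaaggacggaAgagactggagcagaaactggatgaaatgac
Gvin1 (chr7:106158156-106158216, minus strand): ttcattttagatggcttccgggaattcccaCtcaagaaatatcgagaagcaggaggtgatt
Gm4070 (chr7:105896739-105896799, minus strand): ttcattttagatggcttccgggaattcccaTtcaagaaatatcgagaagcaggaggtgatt
Each pair of lines is alike but for the capital letter. Of all words of 50 bases in the Gvin1 transcript, 98.3% also occurred in Gm4070 and 99.2% in some other gene.

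Trim34a (chr7:104244457-104262234, plus strand) has a similar copy, Trim34b (chr7:104329471-104336909, plus strand). Their transcripts differed at 24 of 1827 aligned bases, 17 of them among 1455 coding bases. The stretch of coding sequence with the densest differences is shown, with the differing bases in capitals.
Trim34a (chr7:104247826-104247886, plus strand): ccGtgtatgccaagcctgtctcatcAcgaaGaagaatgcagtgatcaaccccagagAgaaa
Trim34b (chr7:104329643-104329703, plus strand): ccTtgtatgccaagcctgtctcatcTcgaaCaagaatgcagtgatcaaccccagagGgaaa
The other genes were less alike. Trim12a and Trim5 differed at 27 of 928 aligned bases, Trim12a and Trim12c at 39 of 967, and Trim5 and Trim12c at 140 of 3640. Trim30d and Trim30a differed at 268 of 1927. The share of words of 50 bases found in another gene was 61.9% for Trim34a, 38.4% for Trim5, 34.4% for Trim12c, 23.5% for Trim12a, 8.29% for Trim30d, 6.53% for Trim30a and 0.292% for Trim21. Trim21 was thus nearly free of shared words, and Gvin1 consisted almost wholly of them.

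The promoters of the Trim genes were compared over windows of 300 bases, from 250 before to 50 after the annotated start (RefSeq, GRCm38.p6). The windows of 5 genes are shown, because Trim12a, Trim5 and Trim12c share most of this sequence while their levels in KO differed, and because Trim34a and Trim34b do not share it. Capitals mark matches to GAAANNGAAA or its reverse complement TTTCNNTTTC, the core of the element that interferon regulatory factors bind.
Trim12a promoter window (chr7:104315446-104315745, minus strand): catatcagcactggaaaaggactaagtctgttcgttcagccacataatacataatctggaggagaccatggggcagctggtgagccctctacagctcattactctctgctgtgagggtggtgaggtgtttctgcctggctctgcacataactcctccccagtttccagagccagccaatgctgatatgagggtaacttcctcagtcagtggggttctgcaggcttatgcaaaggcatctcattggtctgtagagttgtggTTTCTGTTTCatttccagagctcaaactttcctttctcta
Trim5 promoter window (chr7:104288057-104288356, minus strand): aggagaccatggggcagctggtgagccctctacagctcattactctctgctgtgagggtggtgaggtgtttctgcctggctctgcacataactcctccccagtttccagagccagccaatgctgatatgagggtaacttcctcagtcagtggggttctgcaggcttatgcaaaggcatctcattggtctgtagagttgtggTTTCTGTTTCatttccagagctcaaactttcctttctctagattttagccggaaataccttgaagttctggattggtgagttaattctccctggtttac
Trim12c promoter window (chr7:104353300-104353599, minus strand): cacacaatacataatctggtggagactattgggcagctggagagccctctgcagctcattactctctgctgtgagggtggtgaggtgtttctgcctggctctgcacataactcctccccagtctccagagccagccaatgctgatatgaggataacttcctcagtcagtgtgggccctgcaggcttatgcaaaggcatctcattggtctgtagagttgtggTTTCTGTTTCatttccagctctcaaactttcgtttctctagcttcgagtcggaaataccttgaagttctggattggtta
Trim34a promoter window (chr7:104244207-104244506, plus strand): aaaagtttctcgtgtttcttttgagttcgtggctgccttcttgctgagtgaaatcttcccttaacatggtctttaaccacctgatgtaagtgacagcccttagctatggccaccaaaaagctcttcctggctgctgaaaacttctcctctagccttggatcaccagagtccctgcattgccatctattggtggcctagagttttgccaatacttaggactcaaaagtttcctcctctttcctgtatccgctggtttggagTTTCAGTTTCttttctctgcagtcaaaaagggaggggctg
Trim34b promoter window (chr7:104329221-104329520, plus strand): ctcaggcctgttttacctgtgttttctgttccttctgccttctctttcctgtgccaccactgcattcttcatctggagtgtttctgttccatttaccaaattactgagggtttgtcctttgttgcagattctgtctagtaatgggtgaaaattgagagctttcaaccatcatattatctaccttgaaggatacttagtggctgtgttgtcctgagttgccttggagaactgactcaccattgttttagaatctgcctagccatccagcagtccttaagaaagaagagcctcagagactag
The windows of Trim12a and Trim5 were identical over the 241 bases that aligned, those of Trim12a and Trim12c over 247 of 260 bases (95%), and those of Trim12c and Trim5 over 263 of 280 (93.9%). Trim30a has 2 windows, and that of Trim30d matched the one with the higher coordinates at 276 of 295 bases (93.6%) and the other at 225 of 255 (88.2%). All 7 members with a window, which are the Trim genes, held at least 1 match to the motif on either strand, and Trim21 held 2 that overlap. Among all 32851 promoter windows 1131 held a match (3.44%), and 90 of 2790 on chromosome 7 (3.23%). The windows of Trim34b, Trim6 and Trim68 held none. Such a match describes the letters of the window and is not evidence of binding.

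Gvin1 had the highest CPM of the 8 genes in WT adult cells and was not counted at all in KO. In adults it was at 0 and 0 CPM in the KO libraries, against 63.5 and 27.2 CPM in the WT libraries, where 1091 and 395 reads were counted. In embryos it was at 0 and 0 CPM in the KO libraries, against 0.599 and 1.58 CPM in the WT libraries. All 4 KO libraries lay below all 4 WT libraries. The WT mean was 45.4 ± 25.7 CPM in adults and 1.09 ± 0.696 CPM at e13.5 (SD, n = 2 here and below). Set against 3 counts over the KO group, Gvin1 was at least 458-fold lower in KO adults and at least 15.0-fold lower in KO embryos, as far as counting error goes. The embryo bound was 8.24-fold without WT e13.5 replicate 2, 9.20-fold without KO e13.5 replicate 1 and 5.82-fold without KO e13.5 replicate 2.

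The near-identical Gm4070 was counted in all 4 KO libraries. In adults it was at 25 and 45 CPM in the KO libraries, against 54.1 and 29.3 CPM in the WT libraries, and the groups overlapped. In embryos Gm4070 was at 1.38 and 1.66 CPM in KO, against 0 and 1.55 CPM in WT. Gvin1 thus took 0% of the counts of both genes in each KO adult library, where 380 and 679 counts in all allow a share of up to 0.789% and 0.442%, against 54.0% (exact 95% interval 51.8 to 56.2) and 48.1% (44.6 to 51.6) in the WT adult libraries. Summed over Gvin1 and Gm4070, adults had 25 and 45 CPM in KO, against 118 and 56.5 CPM in WT. The sums did not overlap, and the WT mean of 87.1 ± 43.2 CPM was 2.49 times the KO mean of 35 ± 14.1 CPM. At e13.5 the sums were 1.38 and 1.66 CPM in KO and 0.599 and 3.13 CPM in WT, and they overlapped. In adults Gvin1 as counted was thus at least 458-fold lower in KO, while Gvin1 and Gm4070 together were 2.49-fold lower. WT adult replicate 1 carried much of both values: without it the bound for Gvin1 was 274-fold and the sum was 1.61-fold lower in KO. The bound was 228-fold without KO adult replicate 1 and 229-fold without KO adult replicate 2, since the floor of 3 counts then rests on a single library. The estimated counts divide reads that fit both genes by a model, and most reads of these 2 genes fit both. The shares, their limits and intervals and the fold bounds treat each count as an identified read. They leave out the error of that division, which may be much larger and was not measured. A sum is less exposed to that division than either gene. The sums were added after the values were seen.

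**Figure D1:**
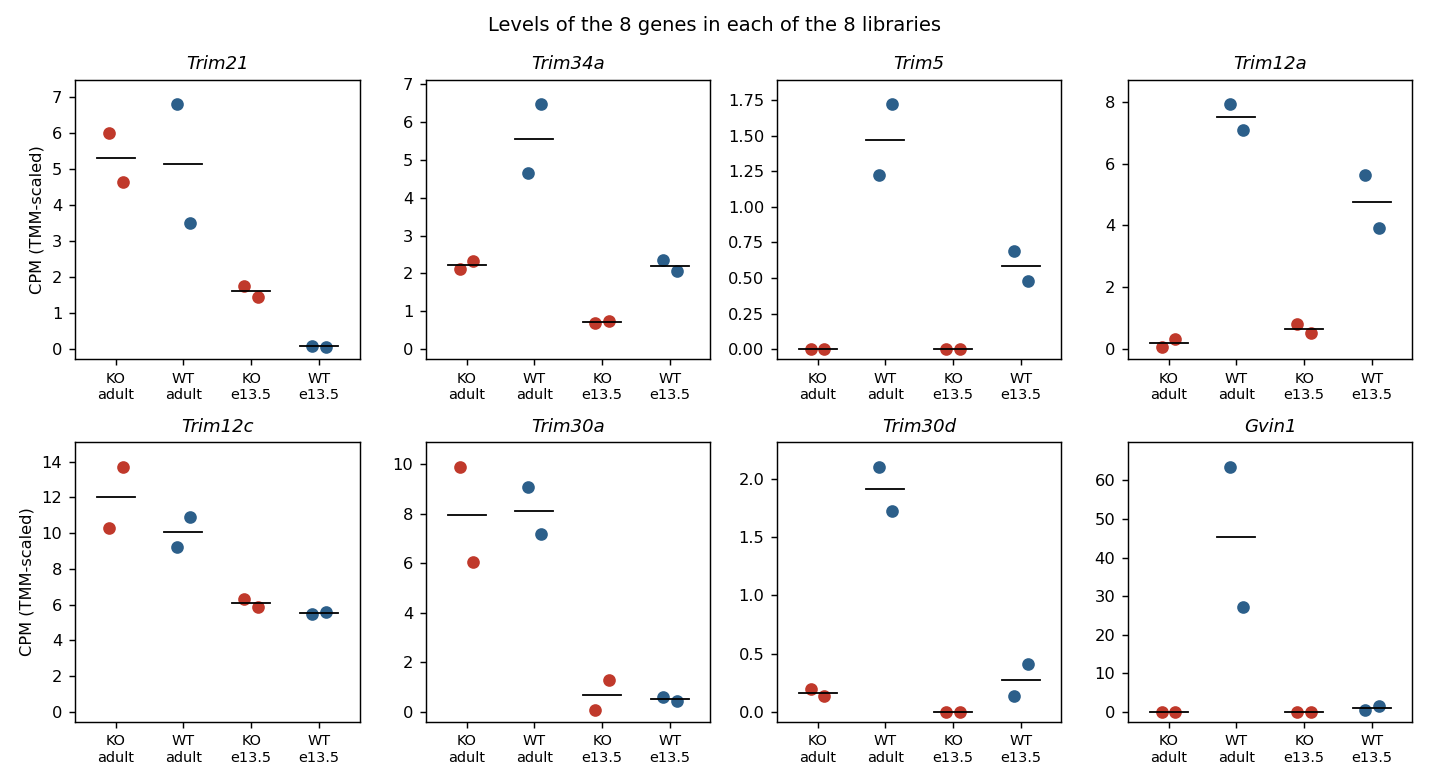
Level of each of the 8 genes in each library, in CPM on a linear axis from 0 that differs between panels. Points are libraries (red KO, blue WT) and bars the mean of 2 libraries. Gvin1, Trim5, Trim12a, Trim30d and Trim34a lie lower in KO at both ages, and Trim12c, Trim30a and Trim21 do not.

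Trim5 (ENSMUSG00000060441, chr7:104263386-104288094, minus strand) and Trim12a (ENSMUSG00000066258, chr7:104299894-104315466, minus strand) lie side by side and were both low in KO. Trim5 was at 0 CPM in all 4 KO libraries, against 1.22 and 1.72 CPM in WT adults and 0.691 and 0.482 CPM in WT embryos. That is at least 14.9-fold lower in KO adults, whose WT mean was 1.47 ± 0.353 CPM, and at least 8.07-fold lower in KO embryos, whose WT mean was 0.587 ± 0.148 CPM. Trim5 was a rare transcript even in WT, with 46 counts over both WT adult libraries and 29 over both WT e13.5 libraries. Without KO adult replicate 1 or 2 its adult bound was 7.40-fold and 7.45-fold, and without KO e13.5 replicate 1 or 2 its embryo bound was 4.94-fold and 3.13-fold, since fewer KO reads raise the floor.

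Trim12a was counted in every KO library, but at a low level. In adults it was at 0.0659 and 0.331 CPM in KO, against 7.92 and 7.09 CPM in WT. At e13.5 it was at 0.813 and 0.514 CPM in KO, against 5.62 and 3.93 CPM in WT. The groups did not overlap at either age. The WT mean was 37.8 times the KO mean in adults, with 6 counts over the KO group against 239 over the WT group, and 7.20 times at e13.5, with 26 against 236 counts. The fitted log2 difference of KO from WT was -5.20 ± 0.80 (SE) in adults and -2.85 ± 0.69 at e13.5. The KO adult counts were 1 in replicate 1 and 5 in replicate 2, and the adult log2 difference was -4.48 without KO adult replicate 1 and -6.70 without KO adult replicate 2.

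Trim12c (ENSMUSG00000057143, chr7:104338754-104353362, minus strand), the near relative of both, did not share the loss. In adults it was at 10.3 and 13.7 CPM in KO, against 9.20 and 10.9 CPM in WT. In embryos Trim12c was at 6.31 and 5.86 CPM in KO, against 5.48 and 5.58 CPM in WT. The adult groups overlapped, the e13.5 KO libraries lay slightly above the WT ones, and the log2 difference was 0.26 ± 0.44 in adults and 0.14 ± 0.44 at e13.5. Trim12a and Trim12c, whose promoter windows are 95% identical, thus stood apart: the mean of Trim12a was 0.199 ± 0.188 CPM in KO adults and 7.51 ± 0.582 CPM in WT adults, while Trim12c differed by less than its error. Summed over Trim5, Trim12a and Trim12c, KO adults had 12.2 ± 2.58 CPM and WT adults 19.0 ± 0.961 CPM, 1.55 times as much. At e13.5 the sum was 6.75 ± 0.534 CPM in KO and 10.9 ± 1.28 CPM in WT, a ratio of WT to KO of 1.61. Neither sum overlapped between KO and WT, and both were lower in KO.

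Trim30d (ENSMUSG00000057596, chr7:104470014-104507849, minus strand) was lower in KO and its neighbour Trim30a (ENSMUSG00000030921, chr7:104409025-104465193, minus strand) was not. Trim30d was at 0.198 and 0.133 CPM in KO adults, against 2.10 and 1.72 CPM in WT adults, a ratio of WT to KO of 11.6 from 61 and 5 counts. At e13.5 it was at 0 CPM in both KO libraries, against 0.138 and 0.413 CPM in WT, at least 3.79-fold lower. Of the 15 WT e13.5 counts of Trim30d 12 were in replicate 2, and without that library the 3 that are left equal the floor and give no fold. The bound was 2.32-fold without KO e13.5 replicate 1 and 1.47-fold without KO e13.5 replicate 2. Trim30d did not overlap between KO and WT at either age. Trim30a was at 9.88 and 6.03 CPM in KO adults, against 9.08 and 7.16 CPM in WT adults. At e13.5 Trim30a was at 0.0625 and 1.27 CPM in KO, against 0.599 and 0.448 CPM in WT. The KO e13.5 libraries lay on either side of the WT libraries, with KO e13.5 replicate 1 the lowest of the 4. The log2 difference of Trim30a at e13.5 was 0.41 ± 0.91, and without KO e13.5 replicate 2 it was -2.92, so that library decided its sign.

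Trim34a (ENSMUSG00000056144) is related to human TRIM34, which also binds retroviral capsids. It was at 2.11 and 2.32 CPM in KO adults, against 4.66 and 6.47 CPM in WT adults. In embryos Trim34a was at 0.688 and 0.752 CPM in KO, against 2.35 and 2.07 CPM in WT. The groups did not overlap at either age, and the WT mean was 2.51 times the KO mean in adults and 3.07 times at e13.5, the smallest ratios of the 5 genes that were lower in KO. Its copy Trim34b went the other way, with 1.84 and 1.39 CPM in KO adults, against 0.175 and 0 CPM in WT adults. At e13.5 Trim34b was at 0.438 and 0.277 CPM in KO, against 0 and 0.0344 CPM in WT. Trim34a took 53.3% and 62.5% of the counts of both genes in KO adults, against 96.4% and 100% in WT adults, and 61.1% and 73.1% in KO embryos, against 100% and 98.4% in WT embryos. Their sum was 3.83 ± 0.171 CPM in KO adults and 5.65 ± 1.16 CPM in WT adults, a ratio of WT to KO of 1.47. At e13.5 the sum was 1.08 ± 0.0681 CPM in KO and 2.23 ± 0.177 CPM in WT, a ratio of 2.07. Both sums were lower in KO without overlap, by less than Trim34a alone.

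**Figure D2:**
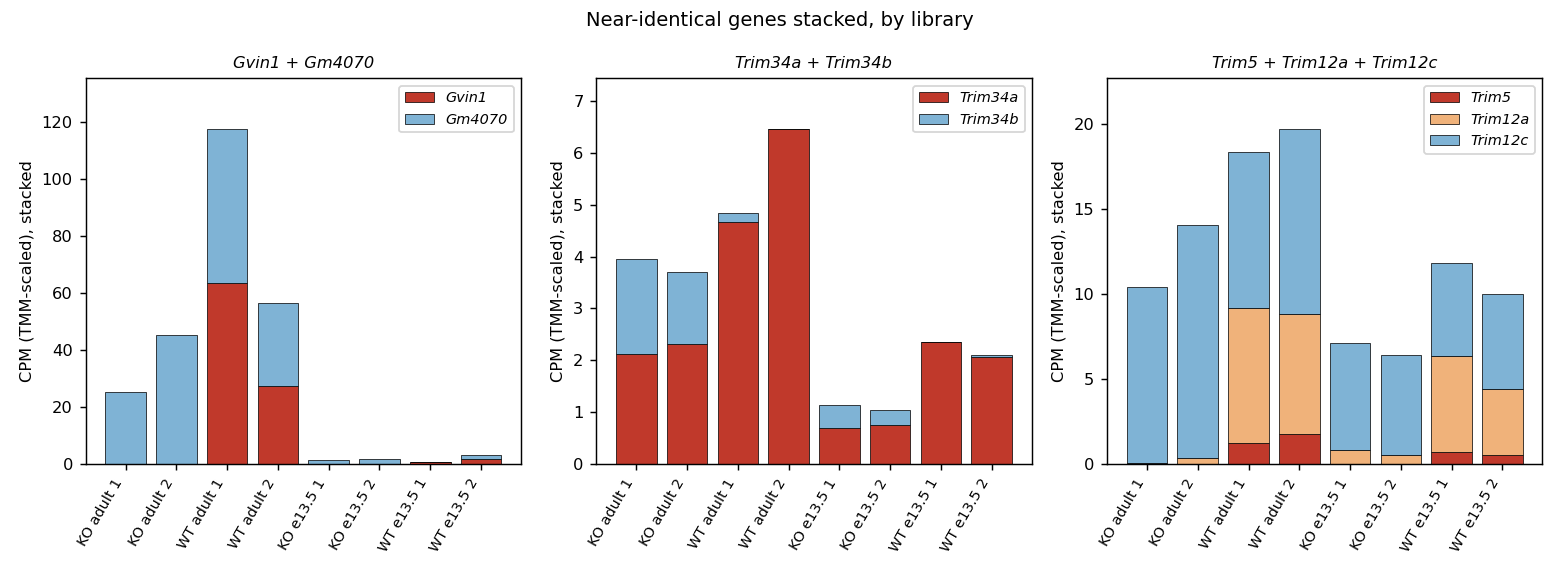
Levels of near-identical genes stacked by library, in CPM on linear axes from 0, for Gvin1 with Gm4070, Trim34a with Trim34b, and Trim5 with Trim12a and Trim12c. The red part, Gvin1 or Trim5, is missing from all 4 KO libraries, and Trim34b takes part of the bar only in KO apart from 4 counts in all of WT.

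Trim21 (ENSMUSG00000030966, chr7:102557921-102565486, minus strand) lies apart from the others, with the beta globin genes between it and Trim34a, and did not share the loss. In adults it was at 6.00 and 4.64 CPM in KO, against 6.81 and 3.51 CPM in WT, and the groups overlapped. At e13.5 it was at 1.75 and 1.46 CPM in KO, against 0.0922 and 0.0689 CPM in WT. The e13.5 KO libraries lay above the WT libraries, by 65 counts against 4. The ratio of KO to WT had a 95% counting interval running from 7.44 to 75.5. The log2 difference was 4.23 ± 0.74 at e13.5 and 0.04 ± 0.57 in adults.

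Of the 8 genes, 5 were lower in KO without overlap of the libraries in adults, and the same 5 at e13.5: Gvin1, Trim5, Trim12a, Trim30d and Trim34a. Over all 16623 genes tested, KO libraries lay below WT libraries without overlap in 14.5% in adults, in 8.65% at e13.5 and in 1.93% at both ages. KO lay above WT without overlap in 6.77% of genes at e13.5, as Trim12c and Trim21 did. Since the 8 genes were picked for low counts in KO, nothing is read from these shares about them. Trim12c, Trim30a and Trim21 went against the description as genes lost from KO. The bulk libraries cannot tell fewer cells that use a gene from less RNA of it per cell.

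Which neighbours shared the loss was asked in a window from 1 Mb before Trim21 to 1 Mb after Gvin1, 5.66 Mb long. It held 339 other genes, of which 64 passed the filter on low counts and were tested. The members come from this same window, had been picked as genes lost from KO, and are left out of these neighbours. Neighbours with a like loss may therefore already be among the members. The counts and medians of neighbours here and below thus cannot show that the loss is confined to the members, and that was not tested. No neighbour was called lower or higher in KO by edgeR at a Benjamini-Hochberg adjusted p below 0.05, in adults, at e13.5 or averaged over both ages, and none differed in its KO effect between the ages. Over all genes the called share was 0.0481% in adults, 0.0722% at e13.5, 0.12% averaged and 0% for the difference between the ages, so few genes were called anywhere. At an unadjusted p below 0.05, 2 neighbours were lower and 2 higher in KO adults, 1 lower and 4 higher in KO embryos, 3 lower and 4 higher averaged over the ages, and 1 differed between the ages. Over all genes 2.27%, 2.39%, 2.83% and 1.59% passed that p in these 4 contrasts. DESeq2 called none in adults, none at e13.5, none for the difference and 1 on average, Gm5900, which was higher in KO. The median log2 difference of the 64 neighbours was -0.07 in adults, where the median of all genes was 0.01, and -0.06 at e13.5, where it was -0.07. With genes at 0 counts in a group set to their bound, the neighbours' medians were -0.06 and -0.04.

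By the order of the libraries alone, 14 of 64 neighbours (21.9%) lay lower in KO adults without overlap, 7 (10.9%) in KO embryos and 2 (3.12%) at both ages. Over the 1229 tested genes of the rest of chromosome 7 the shares were 12.1%, 8.79% and 1.55%, and over all 16623 genes tested 14.5%, 8.65% and 1.93%. The 2 neighbours that were lower at both ages were Pgap2 and Xntrpc, named for this order. Pgap2, which acts in the maturation of GPI anchors, was at 35.2 and 28.2 CPM in KO adults, against 54.2 and 56.3 CPM in WT adults. In embryos Pgap2 was at 29.9 and 18.8 CPM in KO, against 46.4 and 30.8 CPM in WT. Its averaged log2 difference was -0.73 ± 0.30, and edgeR's adjusted p was 1. Xntrpc was at 0.593 and 0.398 CPM in KO adults, against 1.46 and 2.0 CPM in WT adults, with an averaged log2 difference of -2.30 ± 0.71 (adjusted p = 0.992, edgeR). At e13.5 it was at 0.375 and 0.119 CPM in KO, against 0.553 and 2.82 CPM in WT, where replicate 2 held 82 counts and replicate 1 held 12. Xntrpc overlaps Xndc1 and Trpc2 on the same strand, and how reads were divided among them was not checked. Pgap2 and Xntrpc both lie nearer to Trim21 than to the stretch from Trim34a to Trim30d. Trim34b, inside that stretch, and Trim6, just before it, were not lower in KO at both ages.

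Of the tested genes next to the members, edgeR called none, and with no filter on low counts it called Gm5900 at e13.5 and Gm5900 and Trim34b averaged over the ages, all higher in KO. Rrm1, the large subunit of ribonucleotide reductase, lies on one side of Trim21 and was at 18.0 CPM in KO adults and 18.7 CPM in WT adults, and at 187 CPM in KO embryos and 194 CPM in WT embryos. Olfr552, an odorant receptor gene on its other side, averaged 0.364 CPM in KO adults and 0.871 CPM in WT adults, from 11 and 27 counts. Trim6, the nearest tested gene before Trim34a, was at 0.462 CPM in KO adults and 0.405 CPM in WT adults, and at 1.62 CPM in KO embryos and 2.34 CPM in WT embryos. The log2 difference of Trim6 was 0.18 ± 1.0 in adults and -0.52 ± 0.87 at e13.5. Trim68, at 8.96 CPM in KO adults and 13.3 CPM in WT adults, and Trim3, at 32.5 CPM in KO adults and 27.9 CPM in WT adults, gave log2 differences of -0.57 ± 0.45 and 0.22 ± 0.41. All of these had an adjusted p of 1 with edgeR at both ages. Wide standard errors at low counts mean that a change of several fold in Trim6 or Olfr552 was not detectable at this depth.

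**Figure D3:**
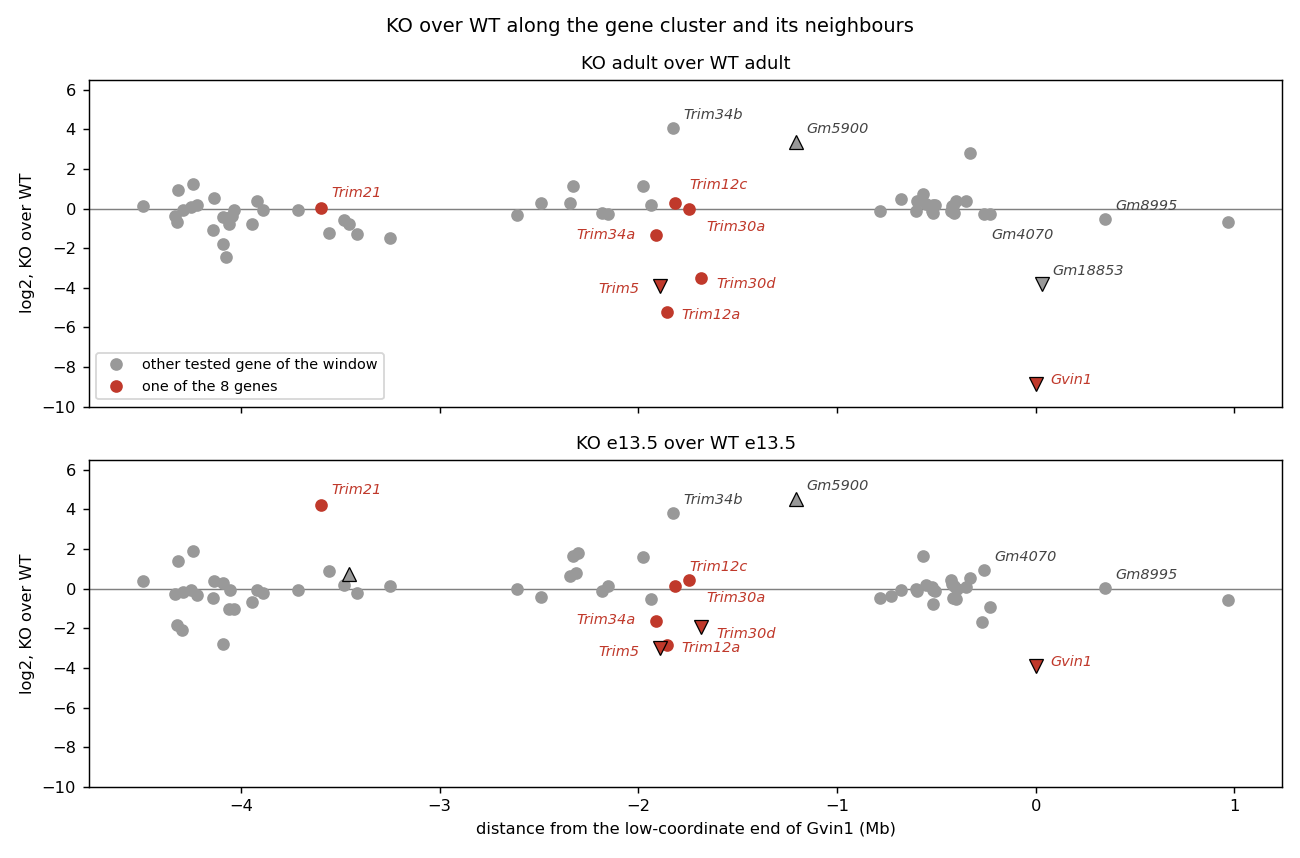
Log2 difference of KO from WT for each of the 8 genes (red) and each other tested gene of the window (grey), against the distance in Mb from the low-coordinate end of Gvin1, in adults above and e13.5 below. Circles are fitted values, triangles pointing down are genes at 0 counts in KO and triangles pointing up genes at 0 counts in WT, placed at their bound against 3 counts. Genes at or under 3 counts in 1 group and 0 in the other are not drawn. Between Trim34a and Trim30d, the low Trim5, Trim12a and Trim30d stand beside Trim12c and Trim30a near 0 and Trim34b above 0. Gm5900, between Trim30d and Gvin1, also lies above 0 at both ages.

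The pseudogene Gm18853, which lies inside Gvin1 (chr7:106186404-106189999), had counts that resembled those of its host. Gm18853 was at 0 and 0 CPM in KO adults, against 1.98 and 0.758 CPM in WT adults, at least 13.8-fold lower in KO from 45 WT counts. At e13.5 it had 0 counts in KO and 2 in WT. Its unadjusted p in adults was 0.00562 and its adjusted p 1 (edgeR). Gm18853 differs from its copy Gm18852, a pseudogene inside Gm4070 (chr7:105925000-105928592), at 1 of 3592 bases. Gm18852 was at 1.19 and 1.06 CPM in KO adults, against 1.63 and 1.1 CPM in WT adults, so these pseudogenes were divided like Gvin1 and Gm4070. Summed, they were at 1.1 ± 0.0887 CPM in KO adults and 2.73 ± 1.24 CPM in WT adults, a ratio of WT to KO of 2.43. Gm8995, a transcribed pseudogene of the same GTPase family beyond Gvin1, was at 9.36 and 16.3 CPM in KO adults, against 22.4 and 14.7 CPM in WT adults. It overlapped between KO and WT at both ages (log2 -0.53 ± 0.72 in adults, adjusted p = 1, edgeR).

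Neighbours higher in KO at both ages without overlap numbered 4 of 64 (6.25%): Folr2, Lrrc51, Trim34b and Gm5900. The share was 1.37% over all genes and 0.814% over the rest of chromosome 7. Gm5900, a processed pseudogene between Trim30d and Gvin1, was at 1.45 and 0.464 CPM in KO adults and 1.69 and 1.03 CPM in KO embryos, against 0 CPM in all 4 WT libraries. It was at least 10.1-fold higher in KO adults and at least 23.0-fold higher in KO embryos, and its averaged adjusted p was 0.152 with edgeR. Of its words of 50 bases 72.4% also occur in Lamtor3, a gene of the lysosomal Ragulator complex. Trim34b had an averaged log2 difference of 3.93 ± 0.95 (adjusted p = 0.517, edgeR). Folr2, the folate receptor of macrophages, was at 13.2 CPM in KO adults and 6.79 CPM in WT adults, and Lrrc51 at 3.30 CPM in KO adults and 1.41 CPM in WT adults. Beside Folr2, the summed level of 16 macrophage and leukocyte markers was 611 and 349 CPM in KO adults, against 393 and 235 CPM in WT adults, which overlapped. It was 183 and 172 CPM in KO embryos, against 105 and 133 CPM in WT embryos. In adults the log2 difference was above 0 for all 16, and for 13 of 14 endothelial and 10 of 11 fibroblast markers. So it was for 7 of 8 smooth muscle and pericyte, 5 of 12 cardiomyocyte and 5 of 7 red cell markers. The part of these cells in the result was not tested.

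Further neighbours were named for the size of their averaged difference at a level of at least 5 CPM. Il18bp, the binding protein of interleukin 18, was at 5.25 CPM in KO adults and 11 CPM in WT adults (log2 -1.06 ± 0.65). Art5, an ADP-ribosyltransferase, was at 11 CPM in KO adults and 18.8 CPM in WT adults (log2 -0.77 ± 0.58). Nup98, of the nuclear pore, was at 34.3 CPM in KO adults and 36.1 CPM in WT adults, but at 15.4 and 29.1 CPM in KO embryos, against 17.7 and 72.4 CPM in WT embryos. Rnf121, a ubiquitin ligase, was at 24.7 CPM in KO adults and 17.1 CPM in WT adults (log2 0.53 ± 0.45). The adjusted p of each was 1 with edgeR at both ages. The beta globin genes Hbb-bs and Hbb-y, adult and embryonic oxygen carriers of red cells, followed KO e13.5 replicate 1: Hbb-y was at 55200 and 6700 CPM in KO embryos, against 13000 and 4840 CPM in WT embryos. Hbb-bs was at 22200 and 3160 CPM in KO embryos, against 5490 and 2600 CPM in WT embryos, so both overlapped.

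The change with age was not used to choose the genes and was tested. In WT, 3 of the 8 genes rose with age by edgeR: Trim21 (log2 5.91 ± 0.76, adjusted p = 0.000552), Gvin1 (5.35 ± 0.77, adjusted p = 0.00183) and Trim30a (3.95 ± 0.95, adjusted p = 0.0106). Trim21 had only 2 counts in each WT e13.5 library, near the floor, so the size of its rise in WT is uncertain. Over all genes 17.8% rose and 21.1% fell with age in WT, 38.9% in all. Trim30d just missed the threshold, with 2.74 ± 0.96 (adjusted p = 0.0503), as 1.91 CPM in WT adults stood against 0.276 CPM in WT embryos. It was called under 6 of 14 alternatives, with adjusted p between 0.0257 and 0.23: with no filter, with median-of-ratios scaling, with the replicate block (adjusted p = 0.0454), from only the 4 WT libraries, and without KO e13.5 replicate 1 (0.0445) or replicate 2 (0.0433), all by edgeR. Trim34a had 1.33 ± 0.55 (adjusted p = 0.0802), Trim5 1.32 ± 0.93 (adjusted p = 0.29), Trim12c 0.86 ± 0.44 (adjusted p = 0.149) and Trim12a 0.65 ± 0.62 (adjusted p = 0.423). Trim12c and Trim12a had the smallest differences between the ages.

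In KO, 3 of the 8 genes rose with age by edgeR, where 20.5% of all genes rose and 20.9% fell, 41.4% in all. Trim30a had a log2 difference of 3.50 ± 0.93 (adjusted p = 0.015), Trim21 of 1.73 ± 0.59 (adjusted p = 0.0402) and Trim34a of 1.61 ± 0.58 (adjusted p = 0.0489). Trim12c had 0.98 ± 0.45 (adjusted p = 0.1) and Trim12a -1.69 ± 0.79 (adjusted p = 0.109). Gvin1 and Trim5 were at 0 CPM in KO at both ages, and Trim30d was at 0 CPM in KO embryos, so no change with age is given for them. The calls of Trim21 and Trim34a lay close to the threshold and held under 3 and 1 of 14 alternatives, with adjusted p between 0.0275 and 0.143 for Trim21 and between 0.0431 and 0.158 for Trim34a. The call of Trim30a in KO held under 14 of 15, with adjusted p between 2.6e-05 and 0.0719. It was lost without KO adult replicate 1, and without KO e13.5 replicate 2 its log2 difference was 6.84. Whether the change with age differed between KO and WT was not tested for the 8 genes. Beside these changes, the summed level of the macrophage and leukocyte markers given above was also higher in adults than at e13.5 in both genotypes. Of these markers edgeR called 5 of 16 higher in KO, where 20.5% of all genes rose, and 5 in WT, where 17.8% did. The log2 difference was below 0 for 3 of the 16 in KO and for 5 in WT. The part of such cells in the result was not tested.

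**Figure D4:**
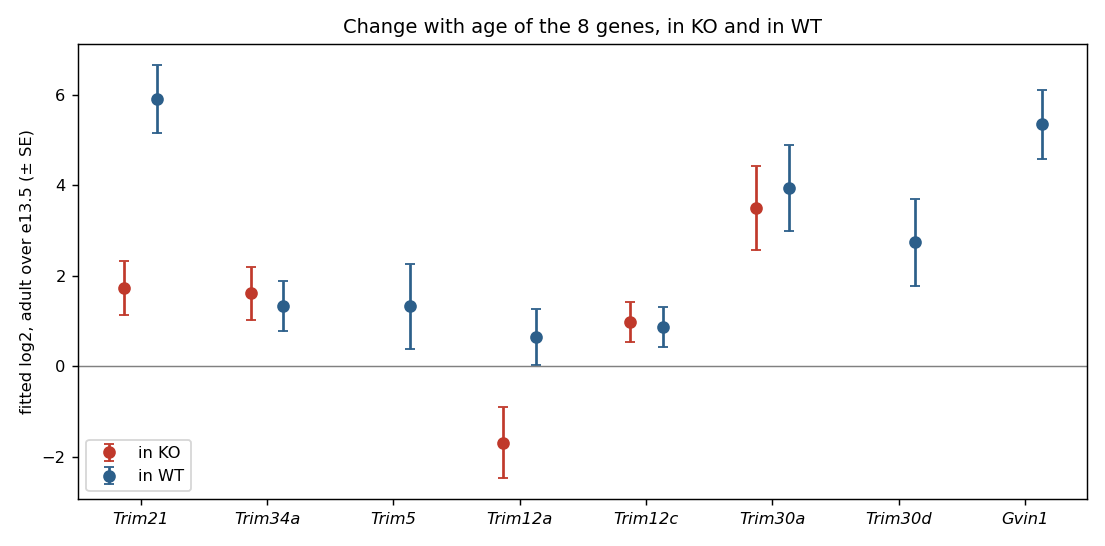
Fitted log2 difference of adult from e13.5 libraries for each of the 8 genes, with its standard error, in KO (red) and WT (blue). Genes at 0 counts in a KO group (Trim5, Trim30d and Gvin1) have no KO point. Trim30a rose in both genotypes, and Trim12a lies below 0 in KO and above 0 in WT without passing the test in either.

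Per kb of exon sequence, Gvin1 was the highest of the 8 genes in WT adults, at 5.04 CPM per kb, and was at 0 in KO adults. The length used joins all annotated exons of a gene. For Trim12a it was 5781 bases, while the transcript compared above had 1531 bases. The rank of Trim12a in WT at both ages therefore depends on the length used. Trim12c had 3.22 CPM per kb in KO adults and 2.68 in WT adults, Trim34a 0.854 in KO and 2.15 in WT, Trim30a 1.94 in KO and 1.98 in WT, and Trim21 1.43 in KO and 1.39 in WT. Trim12a had 0.0344 CPM per kb in KO adults and 1.30 in WT adults, Trim30d 0.0439 in KO and 0.508 in WT, and Trim5 0 in KO and 0.399 in WT. In WT adults, neighbours in the order Trim12c, Trim34a, Trim30a, Trim21, Trim12a overlapped in their libraries, as did Trim30d and Trim5, while Gvin1 lay above Trim12c. In WT embryos Trim12c led with 1.48 CPM per kb, followed by Trim34a with 0.852 and Trim12a with 0.826, which overlapped. The other 5 genes lay between 0.0217 and 0.159 CPM per kb in WT embryos. Trim12c was the highest of the 8 in KO at both ages, with 1.63 CPM per kb in KO embryos.

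Related genes elsewhere in the genome were listed with these results in view. Of 17 other interferon-inducible GTPases 15 were tested, and edgeR called none lower or higher in KO at either age. At an unadjusted p below 0.05 there were 2 in adults, where 2.27% of all genes passed, and 1 at e13.5, where 2.39% did. DESeq2 called 1 in adults and none at e13.5. That was Gbp10, at 0.857 and 1.26 CPM in KO adults, against 14.3 and 10.5 CPM in WT adults (log2 -3.54 ± 0.78, adjusted p = 0.417 with edgeR and 0.00196 with DESeq2). The median log2 difference of the 15 GTPases was -0.40 in adults, where all genes had 0.01, and 0.16 at e13.5, where all genes had -0.07. It was below 0 for 13 of the 15 in adults and for 6 at e13.5. Gbp6, a guanylate-binding protein and the most abundant of them, was at 34.2 and 49.3 CPM in KO adults, against 123 and 127 CPM in WT adults, and did not overlap (log2 -1.58 ± 0.45, adjusted p = 1, edgeR). Irgm1, which protects cells against vacuolar pathogens, was at 23.9 and 15.2 CPM in KO adults, against 29.1 and 26.6 CPM in WT adults (log2 -0.51 ± 0.45, adjusted p = 1). With age, 11 of the 15 GTPases rose in KO, where 20.5% of all genes did, and 13 in WT, where 17.8% did (edgeR). Gbp6 rose by 3.98 ± 0.50 on the log2 scale in KO (adjusted p = 0.000449) and by 6.10 ± 0.55 in WT (adjusted p = 0.000216).

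Of 42 other interferon-stimulated genes 41 were tested, and edgeR called none in KO against WT, and DESeq2 none. At an unadjusted p below 0.05 there was 1 in adults, where 2.27% of all genes passed, and 4 at e13.5, where 2.39% did. Their median log2 difference was 0.02 in adults, where all genes had 0.01, and 0.11 at e13.5, where all genes had -0.07. Trafd1 and Shisa5, the most abundant of them, were at 61.5 and 42.9 CPM in KO adults, against 60.5 and 25.1 CPM in WT adults (log2 0.02 ± 0.38 and 0.77 ± 0.50, adjusted p = 1 for each, edgeR). With age, 22 of the 41 rose in KO, against 20.5% of all genes, and 22 in WT, against 17.8%. Parp12 rose by 4.15 ± 0.60 on the log2 scale in KO (adjusted p = 0.000844) and by 4.04 ± 0.59 in WT (adjusted p = 0.000963). Ifi203 rose by 6.03 ± 0.83 in KO (adjusted p = 0.000671) and by 6.33 ± 0.83 in WT (adjusted p = 0.000588). 

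Of 31 genes of interferon signalling and nucleic acid sensing 30 were tested, and edgeR called none in KO against WT, and DESeq2 none. At an unadjusted p below 0.05 there was 1 at each age, where 2.27% of all genes passed in adults and 2.39% at e13.5. Their median log2 difference was -0.03 in adults and -0.14 at e13.5. The interferon gamma receptor chain Ifngr2 was at 196 CPM in KO adults and 216 CPM in WT adults, and the kinase Jak1 at 159 CPM in KO adults and 186 CPM in WT adults. With age, 12 of the 30 rose and 2 fell in KO, where 20.5% of all genes rose and 20.9% fell. In WT 10 rose and 1 fell, where 17.8% of all genes rose and 21.1% fell. Irf7, the regulator of interferon genes, rose by 2.91 ± 0.58 on the log2 scale in KO (adjusted p = 0.00386) and by 4.96 ± 0.63 in WT (adjusted p = 0.00053). Its mean was 15.8 CPM in KO adults and 39.5 CPM in WT adults. In adults the log2 difference of KO from WT was below 0 for 17 of the 30 genes and above 0 for 13.

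Among Trim genes outside the window 37 of 55 were tested, and edgeR called none in KO against WT, with none at an unadjusted p below 0.05 at either age and none by DESeq2. Their median log2 difference was 0 in adults and -0.30 at e13.5. Trim72, which repairs the membrane of muscle cells, was at 503 CPM in KO adults and 409 CPM in WT adults, and Trim63, the muscle ligase MuRF1, at 211 CPM in KO adults and 182 CPM in WT adults. Of these 37, 12 rose and 2 fell with age in KO (20.5% and 20.9% of all genes), and 11 rose and 3 fell in WT (17.8% and 21.1%). Trim72 rose by 9.95 ± 1.01 on the log2 scale in KO (adjusted p = 0.000243) and by 8.77 ± 0.96 in WT (adjusted p = 0.000342, edgeR).

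**Figure D5:**
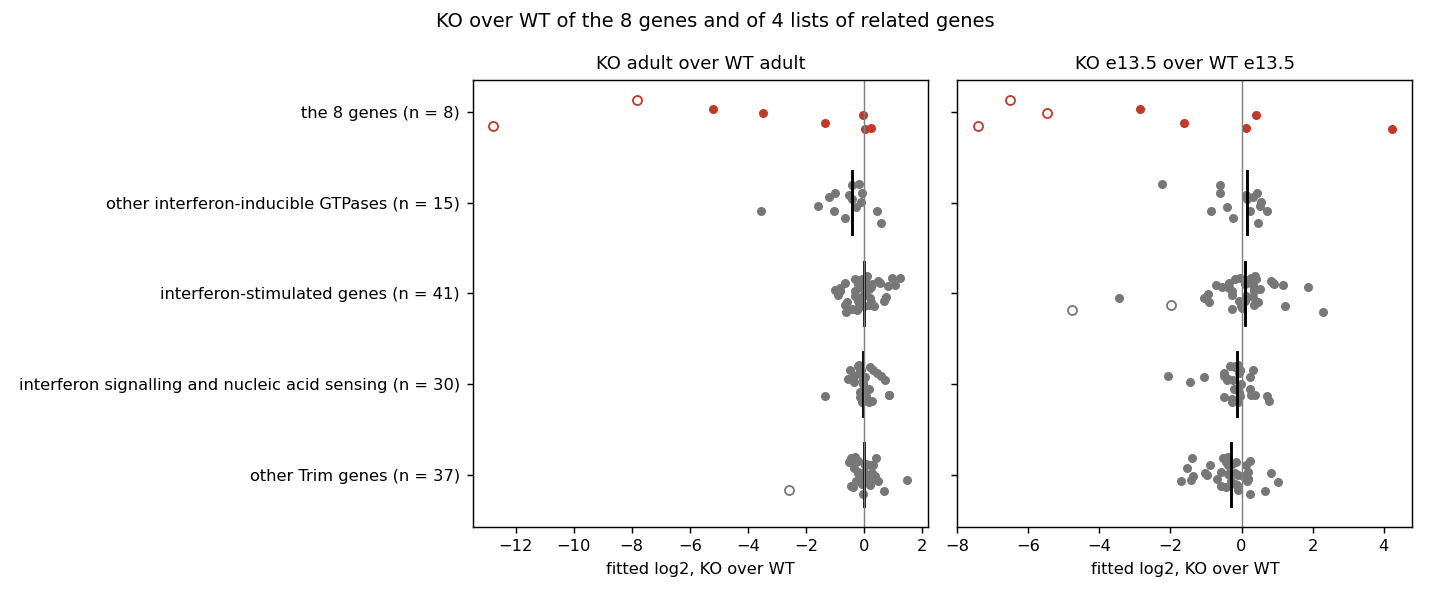
Fitted log2 difference of KO from WT for the 8 genes (red) and for the tested genes of 4 lists (grey), in adults on the left and at e13.5 on the right, with horizontal scales that differ. Black bars are list medians, and open circles are genes at 0 counts in 1 group, whose fitted value depends on the prior count of the model. The medians lie between -0.40 and 0.16, and 5 of the 8 genes lie below -1 at both ages.

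The genes outside the window whose log2 CPM followed a member most closely over the 8 libraries are given as a description. The 8 libraries form 4 groups, so such a correlation mostly reads the group means. For Gvin1 they were Gm43609 (r = 0.983), Ifi208 (0.971), BC037032 (0.957), 5830417I10Rik (0.955) and Noxred1 (0.95). Of these 5830417I10Rik was the most abundant, at 4.48 and 6.03 CPM in KO adults, against 43.3 and 40.2 CPM in WT adults. For Trim12a they were Gm15446 (0.978), Mettl14 (0.972), Gm18310 (0.968), Gm36670 (0.935) and 2610507I01Rik (0.933). Mettl14, a subunit of the enzyme that methylates adenosine in mRNA, was at 5.53 and 8.29 CPM in KO adults, against 17.8 and 14.9 CPM in WT adults. The genes lie on chromosomes 1, 3, 5, 7, 8, 11, 12 and 15. They were picked as the closest of all tested genes outside the window, so nothing is read from where they lie.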

How the data were processed

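RNA of cardiomyocytes was measured in 8 libraries. The deposited values are expected counts per gene, made with RSEM on mm10 per the submitters' processing notes; the aligner and versions: not given in the sources used here. RSEM divides reads that fit several genes between them, which matters for near-identical copies. The counts are whole numbers and entered edgeR 4.0.16 (R 4.3.3, limma 3.58.1) as deposited: filterByExpr, TMM (factors 0.77 to 1.44), 4 group means, quasi-likelihood test, two-sided, Benjamini-Hochberg over 16623 genes, threshold 0.05. Names and positions came from GENCODE vM21 for 51633 of 51826 identifiers. No column was left out. DESeq2 1.42.0 was an alternative. Folds against 0 use 3 counts over the group, and the 95% intervals and the floors reflect counting alone, as reads carry no molecular identifiers. Transcripts were aligned with BLAST 2.17.0 and Biopython 1.88, and plots made with matplotlib 3.10.9 in Python 3.11.15. The fit was tested on simulated data.

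The members and lists were chosen with earlier results of these data known. Named genes were the 8 members; in the window, the tested Trim, Gvin and globin genes, genes called, the nearest tested gene on either side of each member, and the 4 largest rises and falls at 5 CPM or more; of each list up to 4 called genes by smallest p or the 2 of highest level; and the 5 genes most like Gvin1 and Trim12a. From these the text gives the ones with values that a sentence needs. Replicate numbers are shared between groups in the labels, which do not say what they mark.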

Additional observations from a re-analysis of the deposited data

How the results depend on the processing

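Counted by the sign of the fitted log2 difference alone, the 5 members lower in KO at both ages stayed 5 under both other scalings and under the replicate block. By that sign the number was 4 of the 7 that could be fitted from only the 4 libraries of a comparison, and 5 to 6 with a library left out. The 6 came from Trim30a without KO e13.5 replicate 2, at log2 -2.92 at e13.5 but only -0.03 in adults. Summed with their relatives, not all 5 stayed lower without overlap. The sum of Gvin1 and Gm4070 overlapped between KO and WT at e13.5. That of Trim30d and Trim30a overlapped at both ages, at 10.1 and 6.16 CPM in KO adults, against 11.2 and 8.88 CPM in WT adults. The count of neighbours called was 0 in every contrast except 1 at e13.5 with no filter on low counts (Gm5900) and, averaged over the ages, 2 with no filter (Gm5900 and Trim34b) and 1 with DESeq2 (Gm5900). With the replicate block it was 0 in every contrast. A window of 3 Mb on either side also gave 0. Members that rose with age in WT numbered 3, and 2 to 4 under the alternatives (4 with the replicate block, Trim30d being the fourth). In KO they numbered 3, as with the replicate block, but only Trim30a (1) with no filter, with at least 5 CPM in at least 2 libraries, with median-of-ratios or upper quartile scaling, with DESeq2 and from only the 4 libraries, and 0 to 2 with a library left out. Deviations of same-numbered libraries from their group means correlated by 0.552 (KO and WT at e13.5), 0.307 (KO and WT adults), -0.0321 (WT at both ages) and 0.129 (KO at both ages), which with 2 pairs does not establish a pairing. Over all genes, calls numbered 12 at e13.5 (87 with no filter, 30 with DESeq2, 5 from 4 libraries, 6 to 35 with a library left out), 8 in adults (64, 54, 2 and 0 to 19, and 13 with median-of-ratios scaling), 20 averaged (100 with no filter, 59 with DESeq2, 11 to 35 with a library left out) and 0 for the difference between ages (30, 7 and 0 to 5). With 2 libraries a group and few counts in most of these genes, changes of a few fold could not be told from the spread. The cause of these shifts was not tested.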
